A study of Mus musculus with 10 samples.

Results

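Chemokines are small secreted proteins that attract leukocytes, and the intestinal epithelium is one of their sources. Those of the CXC family with an ELR motif (Cxcl1, Cxcl2, Cxcl5) act through Cxcr2 on neutrophils, and Ccl20 acts through Ccr6 on lymphocytes and dendritic cells. Ccl25 is known for drawing Ccr9-bearing lymphocytes to the small intestine, and Ccl28 draws Ccr10-bearing plasma cells to mucosal surfaces. Cxcl16 and Cx3cl1 are made as membrane-anchored proteins that proteases can release, and Ccl6 is a mouse CC chemokine that acts through Ccr1.

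Here 9 chemokine genes (Cxcl1, Cxcl2, Cxcl5, Cxcl16, Ccl6, Ccl20, Ccl25, Ccl28 and Cx3cl1) were followed, out of 31053 genes in the files. They were chosen by name, as chemokines that epithelial cells make, but with earlier results of these data known. Counts of members set against all genes are therefore a description and no support. All 9 were measured and passed the filter on low counts in the organoids. Transcripts were counted as UMIs (unique molecular identifiers, 1 for each captured molecule) in single cells of 10 droplet libraries. Levels are given in CPM, the UMIs of a gene scaled to the total UMIs of the kept cells of a library or class.

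ENR-organoids (3 libraries) are small intestinal organoids, which are epithelial cultures grown from crypts in Matrigel, grown with EGF, Noggin and R-Spondin 1. For the Hyper-organoids (3 libraries) the medium held LDN193189, GSK-3 Inhibitor XV, Pexmetinib, EGF, R-Spondin 1 conditioned medium, FGF2, 500 µM VPA (valproic acid, an inhibitor of histone deacetylases) and 2 µM EPZ6438 (an inhibitor of the methyltransferase EZH2). The -VE-organoids (2 libraries) lacked VPA and EPZ6438. The labels name no culture series, and the series used here are read from the sample codes. By these codes libraries 1 of each group were taken as culture series 2 and libraries 2 as series 6. In both, the Hyper- and -VE-organoids had been started from ENR-organoids. Libraries 3 of the ENR- and Hyper-organoids were taken as series C and came from primary crypts. Passages were 2, 7 and 3 for the ENR-organoids, 1 and 6 for the -VE-organoids and 1, 6 and 3 for the Hyper-organoids. Normal mice and mice given DSS (dextran sulfate sodium, which injures the colon) each gave 1 library of colonic crypts. The labels do not say whether the DSS mice also received VPA and EPZ6438, which the study gave to mice with DSS colitis, so DSS and such a treatment cannot be told apart here. Neither the strain nor the age of the mice is given per library in the labels, nor is it said whether libraries came from separate animals, so p-values measure the spread between libraries, which may be technical.

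Kept cells numbered 1983 to 4293 in the organoid libraries, with a median of 38174 to 50652 UMIs per cell, and 1132 (normal) and 1933 (DSS) in colon, with medians of 18375 and 16051 UMIs. At most 5 barcodes were shared by any 2 libraries. The organoids were epithelial by their markers: the summed level of 5 epithelial markers (Epcam, Krt8, Krt18, Krt20, Cdh1) was 3360 to 4172 CPM. The 5 neutrophil markers summed to at most 0.210 CPM in each organoid library, and the 3 leukocyte markers (Ptprc, Coro1a, Laptm5) to 0.146 to 0.312 CPM in the ENR- and -VE-organoids and to 1.43, 0.591 and 0.953 CPM in Hyper-organoids 1, 2 and 3. The 4 stroma markers (Col1a1, Col1a2, Col3a1 and Dcn) summed to 0.0337 to 0.0903 CPM in the ENR- and -VE-organoids and to 0.432 to 0.563 CPM in the Hyper-organoids. The 5 macrophage and monocyte markers summed to 3.95 to 5.10 CPM in the Hyper-organoids and 3.29 to 3.86 CPM in the others, and the 4 T cell markers to 0.0939 to 0.188 and 0.0206 to 0.0898 CPM. These 4 sums were higher in each Hyper library than in each other organoid library, and that of the 4 B and plasma cell markers was lower (0.907 to 1.62 against 1.67 to 4.75 CPM). Their part in the differences of the Hyper-organoids was not tested.

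The 3 ELR chemokine genes lie together on mouse chromosome 5 (build mm10): Cxcl5 (ENSMUSG00000029371) at 90759360 to 90761624, Cxcl1 (ENSMUSG00000029380) at 90891241 to 90893115 and Cxcl2 (ENSMUSG00000058427) at 90903871 to 90905938, all on the plus strand and within 147 kb. The other members lie elsewhere. Ccl20 (ENSMUSG00000026166) is on chromosome 1 at 83116766 to 83119167, Ccl25 (ENSMUSG00000023235) on chromosome 8 at 4325210 to 4360020, Cx3cl1 (ENSMUSG00000031778) on chromosome 8 at 94772009 to 94782427 and Ccl28 (ENSMUSG00000074715) on chromosome 13 at 119623819 to 119654359, all plus strand. Cxcl16 (ENSMUSG00000018920, chromosome 11, 70453983 to 70459984) and Ccl6 (ENSMUSG00000018927, chromosome 11, 83587882 to 83593087) are on the minus strand. In the GENCODE annotation Cxcl16 overlaps Zmynd15, Ccl6 overlaps E230016K23Rik and Ccl25 overlaps Elavl1, in each case on the opposite strand.

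Promoters of 4 members are shown because Cxcl1 and Cxcl2 both rose in the Hyper-organoids in the results that follow, whereas Ccl20 and Ccl28 did not. In colon, Cxcl2 and Ccl20 were higher in the DSS library and Cxcl1 was under 2-fold. Each stretch is 120 bases on the plus strand that end 30 bases before the RefSeq start of the gene (GRCm38.p6), and capitals mark matches of the NF-kB kappaB consensus on either strand. Cxcl1 (chr5:90891095-90891214), Cxcl2 (chr5:90903749-90903868), Ccl20 (chr1:83116616-83116735) and Ccl28 (chr13:119623669-119623788) read as follows.
Cxcl1: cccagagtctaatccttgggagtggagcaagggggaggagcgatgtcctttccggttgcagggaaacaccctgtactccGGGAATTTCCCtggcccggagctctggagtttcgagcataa
Cxcl2: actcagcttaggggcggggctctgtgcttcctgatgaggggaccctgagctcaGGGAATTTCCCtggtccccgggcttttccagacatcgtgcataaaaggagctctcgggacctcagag
Ccl20: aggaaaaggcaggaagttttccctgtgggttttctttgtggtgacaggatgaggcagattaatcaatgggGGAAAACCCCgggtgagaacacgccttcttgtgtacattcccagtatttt
Ccl28: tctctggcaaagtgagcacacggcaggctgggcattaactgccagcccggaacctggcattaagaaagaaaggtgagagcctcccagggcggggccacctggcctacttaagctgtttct

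The same 11 letters were matched in Cxcl1 and Cxcl2, where a match on each strand overlapped the other and began 71 and 97 bases before the start. The Ccl20 match began 80 bases before the start. Promoter windows (250 bases before to 50 after the start) were listed for 7 of the 9 members, and 3 of the 7 held a match, against 8.46% of 32851 windows of the same length in the table. Ccl25, Cx3cl1, Ccl6 and Ccl28 held none. A match is a description of the letters and does not show binding.

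The first comparison asked how the Hyper-organoid medium changed the chemokines against the conventional one. In Hyper-organoids 4 members rose (Cxcl1, Cxcl2, Cxcl5, Cxcl16), 3 fell (Ccl6, Ccl25, Ccl28) and 2 were not called (Ccl20, Cx3cl1). A call required an edgeR adjusted p under 0.05 over all genes tested and a fold of at least 2. The filter kept a gene that reached a minimum CPM in at least 2 of the 8 libraries. Cxcl5 reached it in the 3 Hyper libraries and 1 -VE library and in 0 ENR libraries, so it passed only through the group where it was high and had to differ. With it, 7 of 9 members were called, against 22.9% of the 16037 genes tested, 18.2% called higher and 4.75% called lower. The levels per library of all members are plotted below.

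**Figure D1:**
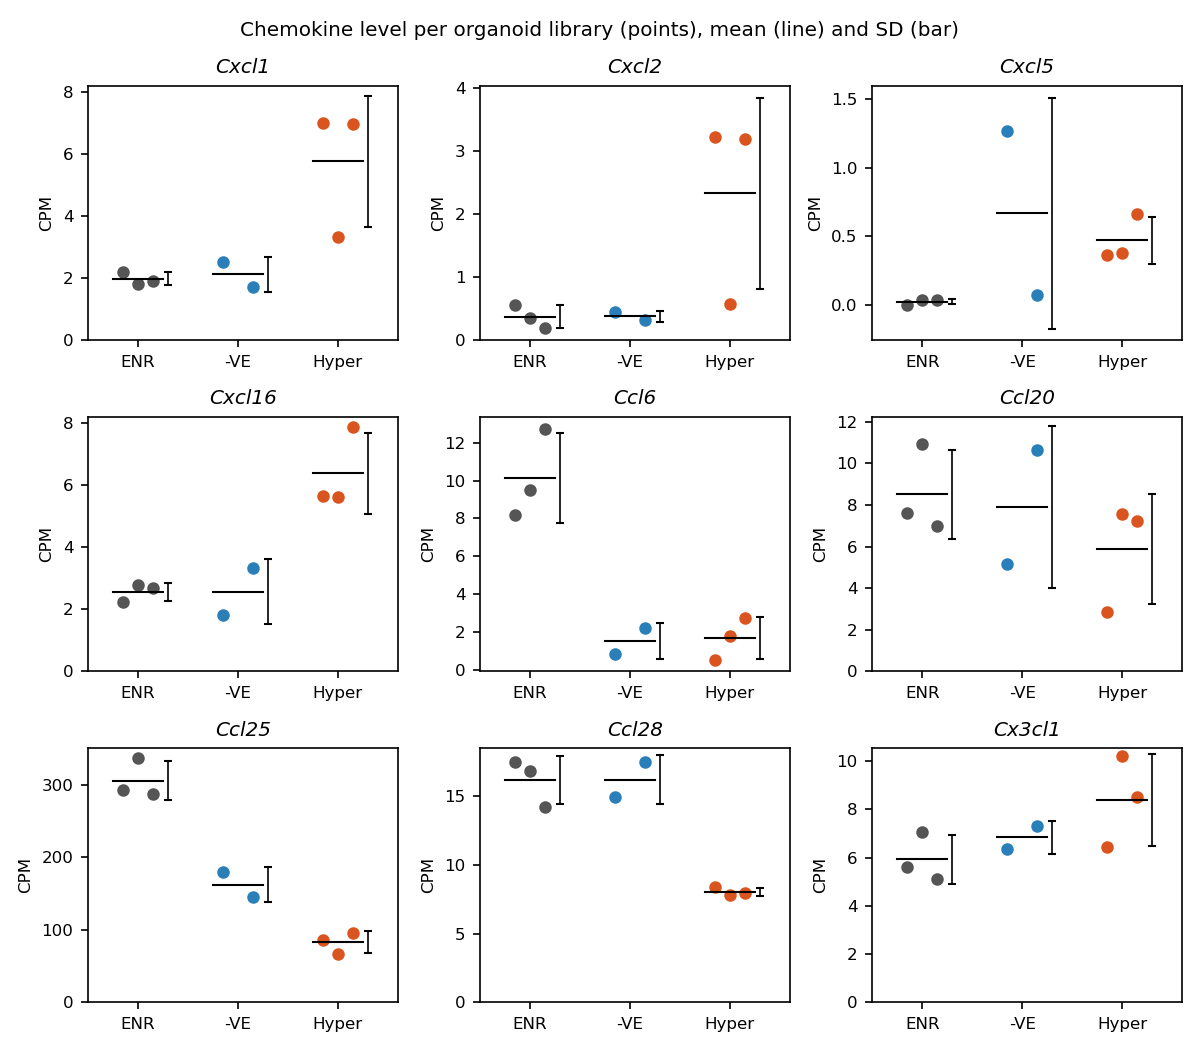
CPM of each chemokine over all kept cells, 1 point per organoid library, for ENR- (grey), -VE- (blue) and Hyper-organoids (orange), with the group mean as a line and the SD as a bar (n = 3, 2 and 3). Cxcl1, Cxcl16, Ccl6, Ccl25 and Ccl28 of Hyper-organoids lie outside the ENR range, and Hyper-organoid library 2 is the lowest for Cxcl1 and Cxcl2.

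Cxcl1, a neutrophil attractant, had 2.22, 1.82 and 1.92 CPM in ENR-organoids 1, 2 and 3 and 7.02, 3.34 and 6.98 CPM in Hyper-organoids 1, 2 and 3. The groups did not overlap, and library 2 (series 6) was the lowest of the Hyper-organoids. The edgeR log2 change was 1.41 (standard error 0.29, adjusted p 0.00365).

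Cxcl2, a close relative of Cxcl1, had 0.566, 0.358 and 0.202 CPM in ENR-organoids and 3.22, 0.577 and 3.19 CPM in Hyper-organoids. The groups were separated only narrowly, since Hyper-organoid library 2 was just above ENR library 1. The edgeR log2 change was 2.51 (standard error 0.64, adjusted p 0.0103). Few cells carried the transcript: after each cell was thinned to 10000 UMIs, 0.31% ± 0.15 (SD, n = 3) of ENR and 0.92% ± 0.38 (SD, n = 3) of Hyper cells held a Cxcl2 UMI. The 1% of cells with the most Cxcl2 UMIs carried 74.2%, 81.7% and 87.8% of them in Hyper-organoids 1, 2 and 3, and a single cell of library 3 held 64 of 288 UMIs.

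Cxcl5, also a neutrophil attractant, was near the limit of detection in ENR-organoids, with 0, 4 and 3 UMIs. Hyper-organoids held 50, 54 and 60 UMIs, or 0.361, 0.380 and 0.665 CPM. The edgeR log2 change of 4.18 (standard error 1.20, adjusted p 0.0171) rests on those 7 UMIs in ENR-organoids and on a filter that the gene passed only with the Hyper libraries, so it is given as a value and not as support. It was not called without ENR library 1 (3.63, edgeR adjusted p 0.0544).

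Cxcl16, a membrane-anchored ligand of Cxcr6, had 2.24, 2.78 and 2.68 CPM in ENR-organoids and 5.65, 5.61 and 7.88 CPM in Hyper-organoids. All Hyper libraries were above all ENR libraries, and the edgeR log2 change was 1.18 (standard error 0.24, adjusted p 0.00353). When every barcode of the matrices was summed instead of the kept cells, the log2 change was 0.36 and was no longer called (edgeR adjusted p 0.146).

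Ccl25 had 294, 337 and 287 CPM in ENR-organoids and 85.7, 66.4 and 96.2 CPM in Hyper-organoids, so that the highest Hyper library was far below the lowest ENR library. The edgeR log2 change was -2.01 (standard error 0.15, adjusted p 1.82e-05). At 10000 UMIs per cell, 86.8% ± 1.2 (SD, n = 3) of ENR cells and 45.2% ± 7.5 (SD, n = 3) of Hyper cells held a Ccl25 UMI.

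Ccl28 had 17.4, 16.8 and 14.2 CPM in ENR-organoids and 8.35, 7.79 and 7.98 CPM in Hyper-organoids. The Hyper libraries varied little among themselves and lay below every ENR library. The edgeR log2 change was -1.13 (standard error 0.09, adjusted p 2.08e-05), and the share of cells with a UMI at 10000 UMIs per cell was 14.3% ± 1.5 against 7.14% ± 0.09 (SD, n = 3 each).

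Ccl6 had 8.16, 9.49 and 12.7 CPM in ENR-organoids and 0.520, 1.77 and 2.75 CPM in Hyper-organoids, again without overlap. The edgeR log2 change was -2.74 (standard error 0.58, adjusted p 0.00396). Ccl20 and Cx3cl1 were not called. Ccl20 had 7.59, 10.9 and 6.98 CPM against 2.84, 7.55 and 7.25 CPM, and only library 1 of the Hyper-organoids lay below the ENR range (edgeR log2 change -0.66, standard error 0.40, adjusted p 0.191). Cx3cl1 had 5.61, 7.05 and 5.11 CPM against 6.44, 10.2 and 8.50 CPM (edgeR log2 change 0.37, standard error 0.18, adjusted p 0.113).

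With culture series as a block, edgeR gave adjusted p values of 0.031 for Ccl20 (log2 change -0.75) and 0.032 for Cx3cl1 (0.37), both still under 2-fold. Of the 9 members, 7 had no overlap between Hyper- and ENR-organoids in the share of cells with a UMI at 10000 UMIs per cell, against 54.0% of all genes tested. In CPM 7 members had no overlap, against 61.0% of all genes tested. Both counts hold Cxcl5, which had to differ, and are no support.

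The -VE-organoids were grown without VPA and EPZ6438. Both -VE libraries were started from ENR-organoids, whereas Hyper library 3 came from primary crypts and has no -VE counterpart, so the groups also differ in origin and passage. Against the -VE-organoids, Hyper-organoids had higher Cxcl1, Cxcl2 and Cxcl16 and lower Ccl25 and Ccl28, 5 members against 18.6% of the genes tested (16.1% higher and 2.51% lower). Without Hyper library 3, 3 members (Cxcl1, Ccl25 and Ccl28) were called. Without overlap in CPM were 5 members and 64.5% of the genes. Against ENR-organoids, the -VE-organoids differed in 1 called member, Ccl6, where 2.55% of the genes tested were called (1.35% higher and 1.20% lower). Without overlap in CPM were 3 members and 44.0% of the genes. These comparisons share libraries, so their values are given side by side.

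**Figure D2:**
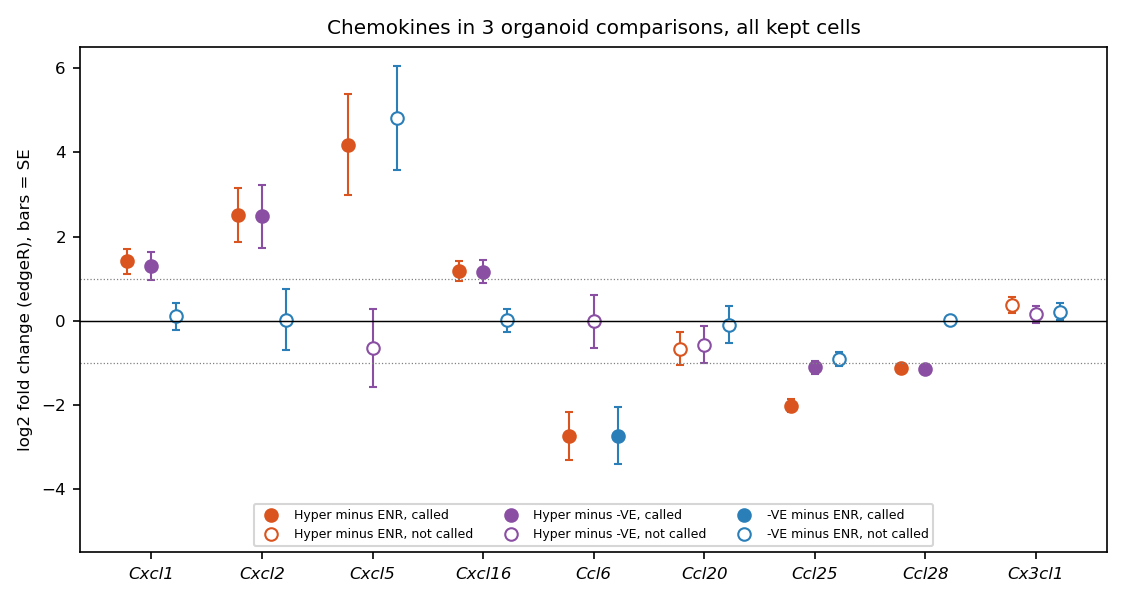
edgeR log2 change (y axis, bars = SE) of each chemokine between Hyper- and ENR-organoids (orange), Hyper- and -VE-organoids (purple) and -VE- and ENR-organoids (blue), with filled points for called differences and dotted lines at 2-fold. Ccl28 shows -1.13, -1.15 and 0.01, and Ccl6 shows -2.74, -0.01 and -2.73 in that order.

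In -VE-organoids 1 and 2, Cxcl1 had 2.52 and 1.74 CPM and Cxcl2 0.443 and 0.318 CPM, close to the ENR values. The Hyper-organoids were higher than these by log2 changes of 1.31 for Cxcl1 (standard error 0.33, edgeR adjusted p 0.0129) and 2.48 for Cxcl2 (standard error 0.74, edgeR adjusted p 0.0250). The Cxcl1 call was lost without -VE library 2 (1.07, edgeR adjusted p 0.102). The Cxcl2 call was lost without -VE library 1 (2.74, edgeR adjusted p 0.0836), -VE library 2 (2.26, edgeR adjusted p 0.147) or Hyper library 3 (2.18, edgeR adjusted p 0.0578).

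Cxcl16 had 1.82 and 3.32 CPM in the -VE-organoids, and the Hyper-organoids were higher by a log2 change of 1.17 (standard error 0.28, edgeR adjusted p 0.00934). It fell below 2-fold without -VE library 1 (0.82), without Hyper library 3 (0.99) and with every barcode (0.80). Ccl28, with 14.9 and 17.4 CPM, was the member whose call against -VE-organoids held in every alternative run (log2 change -1.15, standard error 0.09, edgeR adjusted p 8.44e-05).

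Ccl25 took an intermediate level in -VE-organoids, with 179 and 145 CPM, between the lowest ENR and the highest Hyper library. Hyper-organoids were lower than -VE-organoids by a log2 change of -1.11 (standard error 0.16, edgeR adjusted p 0.000929), which fell under 2-fold without -VE library 1 (-0.93) or Hyper library 2 (-0.97). The -VE-organoids were lower than ENR-organoids by -0.90 (standard error 0.16, edgeR adjusted p 0.0189), less than 2-fold, and by -1.08 without -VE library 1 (edgeR adjusted p 0.0432).

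Ccl6 had 0.837 and 2.19 CPM in -VE-organoids, within or close to the Hyper range. It differed from ENR-organoids by a log2 change of -2.73 (standard error 0.67, edgeR adjusted p 0.0467) and from Hyper-organoids by -0.01 (standard error 0.62, edgeR adjusted p 0.989). The former call was lost without any 1 of the ENR libraries 1, 2 and 3 (edgeR adjusted p 0.0897, 0.114 and 0.113, log2 change -2.88, -2.78 and -2.51), of the -VE libraries 1 and 2 (edgeR adjusted p 0.201 and 0.132, -2.22 and -3.60) or Hyper library 2 (edgeR adjusted p 0.0673, -2.73).

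Cxcl5 had 1.26 and 0.0706 CPM in -VE libraries 1 and 2, the former above and the latter below every Hyper library. In -VE library 1, 141 of the 154 Cxcl5 UMIs came from 8 cells that the authors annotated as revival stem cells, and 1 of these held 61. The log2 change against ENR-organoids was 4.82 (standard error 1.24, edgeR adjusted p 0.0527) and was not called. It was 1.61 without -VE library 1 (edgeR adjusted p 0.400), 1.92 without the revival stem cells (edgeR adjusted p 0.163) and 4.57 once culture series was a blocking term (adjusted p 0.0831 in edgeR). It was called without -VE library 2 (5.75, edgeR adjusted p 0.0243), with DESeq2 (4.91, adjusted p 0.000537), with every barcode (4.55, edgeR adjusted p 0.0419) and without the filter on low counts (4.82, edgeR adjusted p 0.0284). Against -VE-organoids the Hyper-organoids were at -0.64 (standard error 0.92, edgeR adjusted p 0.594), at 2.58 without -VE library 1 (edgeR adjusted p 0.0458) and at 2.23 without the revival stem cells (edgeR adjusted p 0.0134).

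Ccl20 (5.16 and 10.6 CPM) and Cx3cl1 (6.36 and 7.32 CPM) were not called in either comparison with -VE-organoids. In -VE library 2, 1 enterocyte held 327 of the 1809 Ccl20 UMIs.

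The level of each member in the authors' cell classes is plotted next. The classes were SC (stem), TA (transit amplifying), EP (enterocyte progenitor), EC (enterocyte), GC (goblet), PC (Paneth), EE (enteroendocrine), RSC (revival stem) and TC (17 cells, where tuft markers such as Dclk1 were highest). Fixed markers were highest in their own class for 4 of 4 genes in TA, EC, PC, EE and TC, 3 of 3 in RSC, 3 of 4 in EP, 2 of 4 in GC (Tff3 and Muc2 were higher in PC) and 1 of 4 in SC (Lgr5). The classes were made from expression, so differences between them are a description with no test. They also differ in number between groups: EC were 9.78% to 13.1% of kept cells in ENR-organoids and 0.249% to 1.65% in Hyper-organoids, and SC were 9.75% to 14.7% and 40.0% to 44.1%. EP were 22.2% to 34.5% of kept cells in ENR-organoids, 4.29% to 4.39% in -VE-organoids and 0.0852% to 0.107% in Hyper-organoids, and PC were 1.46% to 2.30%, 1.26% to 1.37% and 0.0568% to 0.356%. Within a class, fewer RNA molecules per cell and a smaller share of expressing cells cannot be told apart from a sum.

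**Figure D3:**
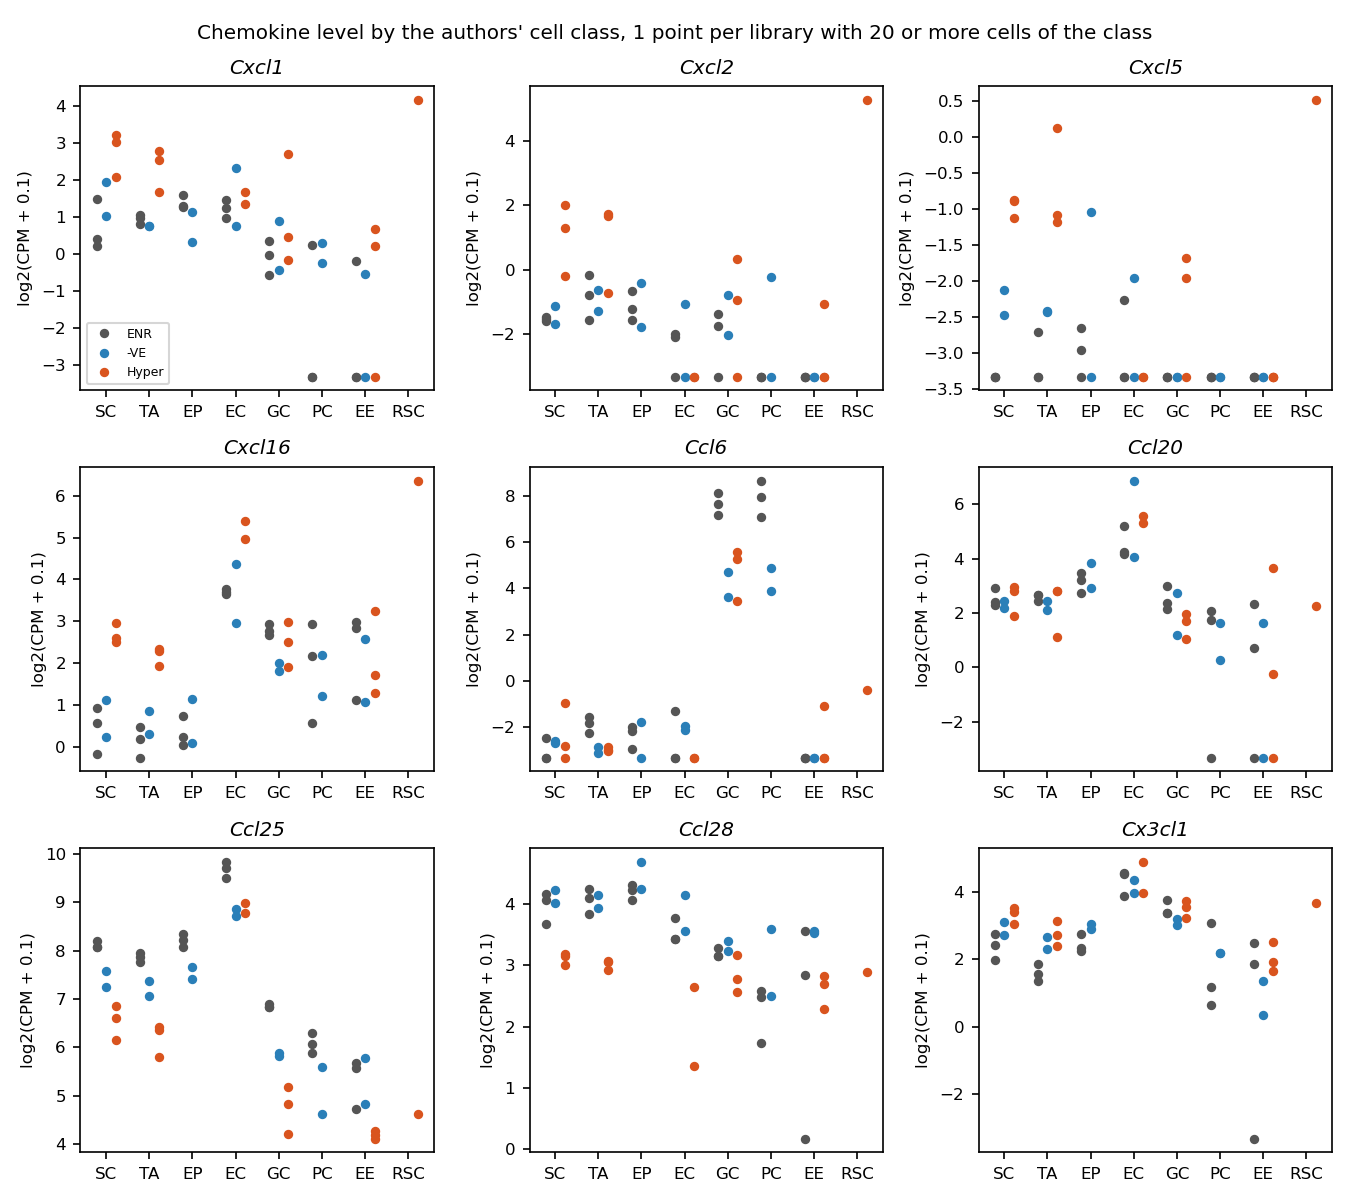
log2(CPM + 0.1) of each chemokine (y axis) by cell class (x axis), 1 point per library with at least 20 cells of the class, for ENR- (grey), -VE- (blue) and Hyper-organoids (orange). Ccl25, Ccl20 and Cx3cl1 were highest in EC in each group, and Ccl6 stood out in GC and PC.

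Ccl25 followed the enterocyte lineage. In ENR-organoids its mean level was 826 CPM in EC (lowest 728, highest 916, n = 3), 298 in EP, 277 in SC, 233 in TA, 115 in GC, 68.0 in PC and 41.4 in EE. Neighbours in this order did not overlap in their range over libraries, except EP and SC. In Hyper-organoids the level was 505 and 437 CPM in the EC of libraries 2 and 3 (58 and 21 cells), 94.8 in SC, 74.3 in TA, 27.5 in GC and 18.1 in EE on average, in the order of the ENR-organoids, although SC overlapped TA and GC overlapped EE in their range over libraries.

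Ccl6 was a transcript of GC and PC. In ENR-organoids it had 143, 201 and 276 CPM in GC and 403, 135 and 251 CPM in PC, and these ranges overlapped. Its mean in SC, TA, EP, EC and EE was at most 0.175 CPM. At 10000 UMIs per cell, 19.8%, 17.0% and 28.6% of the GC of ENR-organoids 1, 2 and 3 held a UMI, against 0 of 316, 0 of 315 and 0 of 228 SC, which allow shares of cells with a UMI of up to 0.949%, 0.952% and 1.32% (3 counts).

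Ccl20 and Cx3cl1 were both highest in EC. Ccl20 had 17.7, 36.3 and 18.6 CPM in the EC of ENR-organoids, above EP (mean 8.90) and TA, SC and GC (5.77 to 5.91 on average, with overlapping ranges). In Hyper-organoids it had 47.1 and 40.1 CPM in the EC of libraries 2 and 3. Cx3cl1 had a mean of 20.3 CPM in EC and 11.3 in GC of ENR-organoids and of 2.95 in TA and 2.98 in EE, whose ranges overlapped with each other and with PC.

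Cxcl16 in ENR-organoids was highest in EC (12.4 to 13.6 CPM) and between 2.05 and 7.77 CPM in GC and EE. It was low in SC, EP and TA (means of 1.32, 1.18 and 1.01 CPM, with overlapping ranges). RSC, which were counted in Hyper- and -VE-organoids only, had 142, 167 and 82.1 CPM in Hyper-organoids 1, 2 and 3 (5, 14 and 26 cells) and 58.0 and 136 CPM in -VE-organoids (8 and 17 cells). These few cells carried 4.86% to 17.4% of the Cxcl16 UMIs of a Hyper library. Without RSC the log2 change between Hyper- and ENR-organoids was 0.999 (edgeR adjusted p 0.00469), just under the 2-fold minimum and no longer called.

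The classes that held the Cxcl1 UMIs differed between the groups, as did the numbers of cells per class. In ENR-organoids Cxcl1 was spread over EP, EC, TA and SC (means of 1.66 to 2.52 CPM, overlapping), with 33.3% to 45.6% of its UMIs in EP and 38.0% to 41.1% in TA. In Hyper-organoids SC gave 45.3% to 46.8% and TA 46.4% to 50.9% of the Cxcl1 UMIs. In RSC, Cxcl1 had 11.2, 10.5 and 17.9 CPM and Cxcl2 had 7.49, 3.01 and 38.4 CPM in Hyper-organoids 1, 2 and 3, from 3, 7 and 27 UMIs of Cxcl1 and 2, 2 and 58 UMIs of Cxcl2. In -VE library 1 the 8 RSC had 153 CPM of Cxcl1, of which 1 cell held 46 of the 50 UMIs.

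Ccl28 was the flattest of the members in ENR-organoids. Its class means ran from 18.3 CPM in EP through TA (16.6), SC (15.8) and EC (11.7) to GC (9.05), EE (6.57) and PC (4.86), and most neighbours overlapped.

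Within classes, members could be compared between groups where each of the 8 libraries held at least 20 cells, which was the case for SC, TA, GC and EE. The study places the stem and the TA cells of Hyper- and ENR-organoids in separate clusters, so differences within SC and TA are between cells that share a class name and not a cluster. Between Hyper- and ENR-organoids 17 pairs of a member and a class were called, against 15.5% of all pairs of a gene and a class, and 26 pairs could be tested. By class they were 6 of 8 members tested in SC, 8 of 9 in TA, 2 of 6 in GC and 1 of 3 in EE, where 18.0%, 20.9%, 13.3% and 7.40% of the genes tested were called. Of the called pairs 4 had passed the filter only through the group where they were high and had to differ: Cxcl2 and Cxcl5 in SC and Cxcl5 in TA through the Hyper libraries, and Ccl6 in TA through the ENR libraries. They are given as values, and the counts that hold them are no support.

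**Figure D4:**
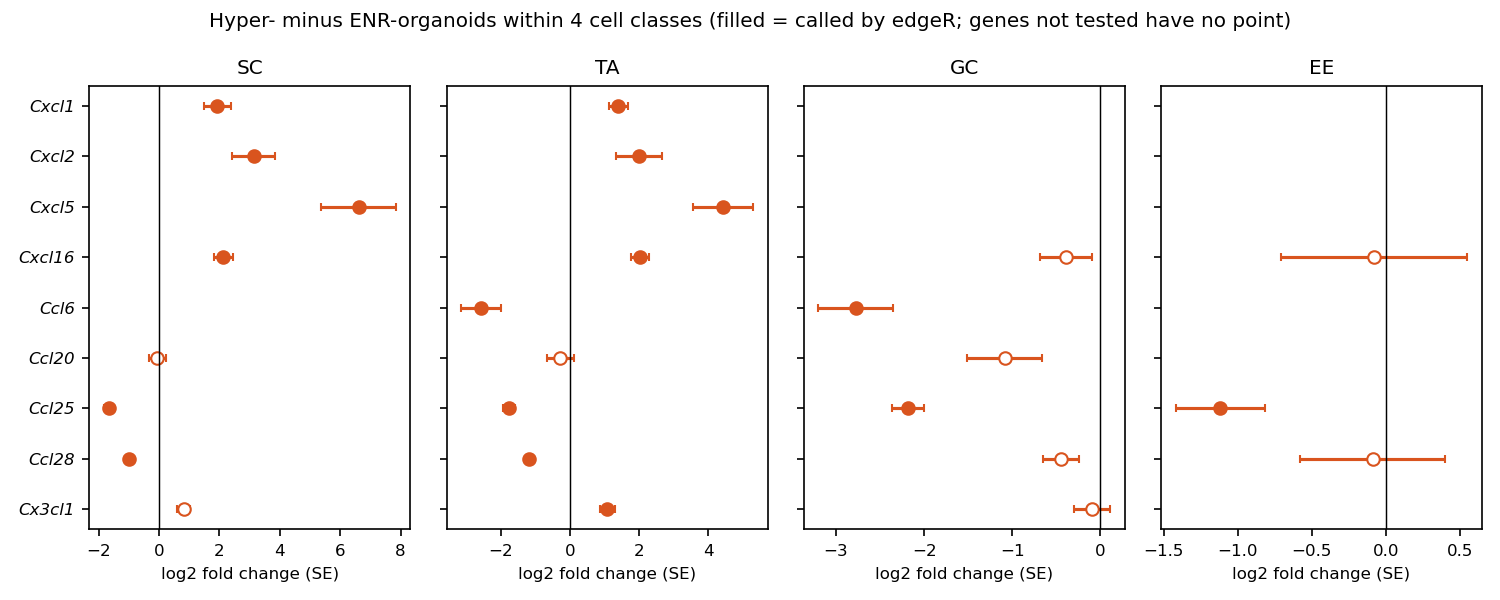
edgeR log2 change (x axis, bars = SE) between Hyper- and ENR-organoids for each chemokine within SC, TA, GC and EE, with filled points for called differences and no point for genes that did not pass the filter on low counts. Each panel has its own scale; Ccl25 lies below 0 in all 4 classes, and the value of Cxcl5 in SC is set against 0 UMIs in ENR-organoids.

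In SC, Cxcl1 had 2.71, 1.22 and 1.05 CPM in ENR-organoids and 9.14, 4.14 and 8.02 CPM in Hyper-organoids (edgeR log2 change 1.93, standard error 0.44, adjusted p 0.00531). Cxcl2 had 0.232, 0.243 and 0.262 CPM against 3.92, 0.770 and 2.34 CPM (edgeR log2 change 3.13, standard error 0.71, adjusted p 0.00543). Cxcl16 had 1.78, 1.38 and 0.786 CPM against 5.99, 5.61 and 7.72 CPM (edgeR log2 change 2.12, standard error 0.31, adjusted p 0.000501). All 3 genes were higher in each Hyper library than in each ENR library, where Cxcl2 reached the CPM minimum of the filter in 0 ENR and 1 -VE library. Cxcl5 had 58 UMIs in the SC of the Hyper-organoids and 0 in those of the ENR-organoids, which is at least 4.61-fold higher against a floor of 3 counts over the ENR group.

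In TA the same 4 genes were called higher, with edgeR log2 changes of 1.40 for Cxcl1 (adjusted p 0.00251), 2.01 for Cxcl2 (adjusted p 0.0321) and 2.03 for Cxcl16 (adjusted p 0.000206). Cxcl5 had 100 UMIs against 3, pooled over the libraries of each group, a ratio of 22.4 in CPM with a 95% counting interval of 7.44 to 110. The interval leaves out the spread between libraries and cells, and 1 TA cell held 14 of the 60 Cxcl5 UMIs of Hyper library 3. The Cxcl2 call was lost without Hyper library 1 (1.72), Hyper library 3 (1.67), ENR library 2 (1.96) or ENR library 3 (1.74). Cx3cl1 also rose in TA, from 2.87, 3.54 and 2.44 CPM to 5.17, 8.61 and 6.503 CPM (edgeR log2 change 1.08, standard error 0.21, adjusted p 0.00257), and fell under 2-fold without Hyper library 2 (0.89). In SC it was at 0.81 (standard error 0.21, edgeR adjusted p 0.00952), under 2-fold.

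Ccl25 was lower in all 4 classes, with edgeR log2 changes of -1.66 in SC (standard error 0.17, adjusted p 6.05e-05), -1.76 in TA (standard error 0.16, adjusted p 3.93e-05), -2.18 in GC (standard error 0.18, adjusted p 7.99e-06) and -1.12 in EE (standard error 0.30, adjusted p 0.0289). The EE call was lost without Hyper library 1 (-1.12), 2 (-1.06) or 3 (-1.15) or ENR library 2 (-0.95) or 3 (-0.98). Ccl28 was lower in SC (-1.002, standard error 0.12, edgeR adjusted p 0.000147) and TA (-1.17, standard error 0.11, edgeR adjusted p 3.48e-05). In SC it lay at the 2-fold minimum, and 9 of 12 alternatives, culture series as a block among them, put it just under (-0.89 at the smallest, without ENR library 1). In GC, Ccl28 was at -0.45 (standard error 0.20, edgeR adjusted p 0.119). Ccl20 in GC was at -1.09 (edgeR adjusted p 0.0703) and was called once culture series was a blocking term (-1.07, adjusted p 0.0212 in edgeR).

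Ccl6 was lower within GC, where Hyper-organoids had 11.0, 39.0 and 48.2 CPM (edgeR log2 change -2.78, standard error 0.42, adjusted p 0.000474). Markers of goblet cells were lower in the same GC: Muc2 by -1.55 (edgeR adjusted p 0.0210) and Fcgbp by -1.71 (edgeR adjusted p 0.000280), with Tff3 at -0.93 and Agr2 at -0.45 (not called). Their part in the Ccl6 difference was not tested. In TA, Ccl6 had 11, 6 and 6 UMIs against 2, 3 and 1.

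Against -VE-organoids 13 pairs were called (12.7% of all pairs of a gene and a class), 5 in SC, 6 in TA and 1 each in GC and EE, where 16.5%, 17.8%, 9.87% and 4.01% of the genes were called. Among them Cxcl2 in SC, Cxcl5 in SC and Cxcl5 in TA had passed the filter only with the Hyper libraries. These pairs are given as values, and the counts that hold them are no support. The study reports that -VE-organoids grouped with ENR-organoids, most of all in the stem cells. By that account the SC of Hyper- and -VE-organoids also share a class name and not a cluster. Cxcl16 was higher by a log2 change of 1.92 in SC (standard error 0.31, edgeR adjusted p 0.00109) and 1.54 in TA (standard error 0.27, edgeR adjusted p 0.00208), and Ccl28 lower by -1.12 (edgeR adjusted p 0.000135) and -1.16 (edgeR adjusted p 0.000103). Cxcl5 was higher by 1.87 in SC (edgeR adjusted p 0.0230) and 2.51 in TA (edgeR adjusted p 0.0192), where over all cells it was not called. In both classes 0 of the -VE libraries reached the CPM minimum of the filter, so that it passed through the Hyper libraries only. Both calls were lost without -VE library 1 (edgeR adjusted p 0.0785 and 0.0902) or 2 (edgeR adjusted p 0.188 and 0.116), and that in SC also with DESeq2 (1.93, adjusted p 0.145) and without Hyper library 2 (1.84, edgeR adjusted p 0.0530). Cxcl1 was higher in TA by 1.59 (standard error 0.31, edgeR adjusted p 0.00319), a call that held in all 12 alternatives. The calls of Cxcl1 in SC (1.21, 0.78 without it), Cxcl2 in SC (2.93, 2.57) and Cxcl2 in TA (2.28, 1.89) were lost without -VE library 2. Those of Cxcl1 in SC and Cxcl2 in TA were also lost without Hyper library 1 (1.02 and 1.98), Hyper library 3 (1.10 and 1.94) or ENR library 2 (1.20 and 2.27), and that of Cxcl2 in TA without -VE library 1 (2.71). In SC, Ccl25 was at -0.97 (edgeR adjusted p 0.00225), under 2-fold, and was called once culture series was a blocking term (-1.07, adjusted p 0.000569 in edgeR). It was lower in TA (-1.13), GC (-1.12) and EE (-1.23), under 2-fold without Hyper library 2 in TA (-0.95) and GC (-0.87) and without -VE library 1 in TA (-0.96), and in EE not called without -VE library 2 (-0.66), any Hyper library (-1.17 to -1.27) or ENR library 2 or 3 (-1.23 each).

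Between -VE- and ENR-organoids 2 pairs were called (0.730% of all pairs), both in GC, where 1.14% of the genes were called (0.503% in SC, 1.03% in TA and 0.190% in EE): Ccl6 (log2 change -3.44, standard error 0.50, edgeR adjusted p 0.00659) and Ccl25 (-1.06, standard error 0.19, edgeR adjusted p 0.0177). Markers of goblet cells in the same GC were at -0.92 (Fcgbp), -0.80 (Muc2), -0.74 (Tff3) and -0.27 (Agr2), none of them called (edgeR adjusted p 0.0980, 0.438, 0.134 and 0.672), and their part was not tested. The Ccl6 call was lost without -VE library 2 (-4.11, edgeR adjusted p 0.0773). The Ccl25 call was lost without ENR library 1 (-1.03) or 3 (-1.04) or -VE library 1 (-1.10) or 2 (-1.02).

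For each member with at least 1 CPM on average, the genes most like it were ranked by Pearson correlation of log2(CPM + 1) over 50 sums of a class in a library, among genes with at least 5 CPM on average. The sums share libraries and depth, and the correlations are a description. Ccl6 was most like Ccl9 (0.96), the neighbouring CC chemokine, then Tpsg1 (0.93) and Ern2 (0.92). Ccl25 was most like Prap1 (0.95), Slc39a5 (0.94) and Ugt2a3 (0.93), and Ccl20 like Tmem253 (0.86), Ugt2b34 (0.85) and Cyb5a (0.84). Cx3cl1 was most like AA467197 (0.84), Ugp2 and Epas1 (0.83 each), Cxcl16 like Maf (0.84), Ctsd and AA986860 (0.83 each) and Ccl28 like Nbn (0.83), Stard7 and Ptpn2 (0.80 each). Cxcl1 was most like Tgfbr2 (0.85), Lrrfip1 (0.81) and Myl12a (0.78), and Cxcl2 like Ly6c1 (0.88), Ly6d (0.80) and Ier3 (0.71). Cxcl5 was too low to be ranked.

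Some cells held both Cxcl1 and Cxcl2. At 10000 UMIs per cell, 11 of 2749 cells of Hyper-organoid library 1 held both, where the product of their shares gives 1.62 cells. In that library 127 cells held Cxcl1 and 35 held Cxcl2. The corresponding counts were 3 cells against 0.432 in library 2 and 7 cells against 0.857 in library 3. In ENR-organoids 1, 2 and 3, which had fewer cells with either transcript, 2, 3 and 0 cells held both, against products of 0.124, 0.132 and 0.0352 cells. Ccl20 with Cxcl16 also exceeded the product, with 9 cells against 2.97 in ENR library 1 and 6 against 3.29 in Hyper library 1. In Hyper libraries 2 and 3 that pair had 15 cells against 10.0 and 11 against 7.01. Cxcl1 with Cxcl16 had 9 against 7.21, 7 against 4.04 and 8 against 5.52 in Hyper libraries 1, 2 and 3. In ENR libraries 1, 2 and 3 it had 1, 0 and 0 cells against 0.774, 0.908 and 0.611. The products take no account of cell class, and doublets stayed in.

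Of 26 other chemokines in the files 8 passed the filter, and between Hyper- and ENR-organoids 4 were called higher and 2 lower, where 18.2% and 4.75% of all genes were called. These counts are largely set by the filter, since Cxcl12, Cxcl15 and Ccl5 passed it only with the Hyper libraries, and nothing is read from them. Cxcl10, an interferon-induced attractant of T cells, had 2.32, 1.64 and 1.20 CPM in ENR- and 12.9, 2.81 and 5.62 CPM in Hyper-organoids (edgeR log2 change 1.93, adjusted p 0.0148). Cxcl12 (3.19), Cxcl9 (2.34) and Cxcl15 (2.33) were higher at levels under 1 CPM. Cxcl13, at most 0.411 CPM in any organoid library, fell by 3.78 on the log2 scale. It reached the minimum of the filter in 3 ENR, 2 -VE and 0 Hyper libraries, so its falls are given as values. Ccl9 fell from 27.4, 21.95 and 22.4 CPM to 5.00, 16.4 and 14.4 CPM (edgeR log2 change -1.13, adjusted p 0.0282). Against -VE-organoids 3 were higher (Cxcl12, Cxcl15, Cxcl9) and 2 lower (Cxcl13, Pf4), where 16.1% and 2.51% of all genes were called. Since these counts also hold Cxcl12 and Cxcl15, nothing is read from them either. In -VE- against ENR-organoids 1 (Pf4, at most 0.172 CPM in any library) was higher, where 1.35% of all genes were. Pf4 reached the minimum of the filter in 2 -VE, 0 ENR and 0 Hyper libraries. It passed only through the group where it was high and had to differ, so its calls are given as values.

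Receptors were scarce in the organoids. Of 22 receptor genes 4 passed the filter, Ccr9 only through the ENR libraries, and Cxcr2 and Cxcr4 reached its minimum in 0 ENR libraries, so counts over these 4 are not given. Those that the members act through (Cxcr2, Cxcr6, Ccr1, Ccr6, Ccr9, Ccr10, Ccr3 and Cx3cr1) had 0 to 22 UMIs in an organoid library, and their levels reached at most 0.144 CPM. Cxcr4, the receptor of Cxcl12, rose from a mean of 0.0477 to 1.23 CPM (edgeR log2 change 4.52, standard error 0.31), and Ackr3, a scavenger receptor of Cxcl12, from 0.117 to 3.06 CPM (4.59, standard error 0.70). Ccr9, the receptor of Ccl25, was at a log2 change of -2.06, from at most 13 UMIs a library.

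In the list of 35 NF-kB and IL-17 axis genes 33 were tested, of which 5 were called higher and 1 lower between Hyper- and ENR-organoids, with a median log2 change of -0.07 against -0.01 over all genes. Since 18.2% of all genes were called higher and 4.75% lower, these counts are near or below the background, and the genes are given as values only. Those higher were the adhesion molecule Icam1 (4.83), the alarmin Il33 (3.93), the receptors Tlr2 (2.91) and Tlr5 (2.43) and Il1r1 (1.75), and Il18 was lower (-1.80). Against -VE-organoids Icam1, Il33, Tlr2 and Tlr5 were higher. Of 10 sheddases and chemokine partners, Mmp7 (1.37) and Adam8 (1.25) rose and Cdx1, a homeobox factor of the intestine, fell (-1.001) between Hyper- and ENR-organoids. These 2 rises and 1 fall compare with the same 18.2% and 4.75% of all genes and are no result about the list. Mmp7 also rose between ENR- and -VE-organoids, from 21.1, 22.1 and 20.5 CPM to 52.1 and 50.2 CPM.

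The colonic libraries have no replicates, so values are given with exact Poisson 95% intervals, which cover counting error only, and no test was made. In the DSS library 3 members were past 2-fold, all higher (Cxcl2, Ccl20, Cxcl5), where 5.08% of 12440 genes were past 2-fold in either direction and 3.55% higher. The same count held under the alternatives run, where the background was 8.12% with a pseudocount of 0.1 CPM, 5.09% with TMM scaling, 5.46% with every barcode, 8.78% with cells thinned to 5000 UMIs, 3.99% without clusters 15, 21 and 22 and 4.03% (2.28% higher) without the 6 clusters in which more than 50% of the cells held Ptprc, a leukocyte marker, and all other Ptprc-positive cells. That setting keeps most of cluster 22 (21 DSS cells, 4.76% with Ptprc), which is led by the neutrophil granule genes Camp, Ngp and Ltf, and of cluster 23 (13 cells, 15.4% with Ptprc), led by mast cell proteases such as Mcpt1. Cluster 22 held 34 of the 9879 Cxcl2 UMIs of the DSS library and cluster 23 held 0. The libraries differ in their cells. The clusters 3, 12 and 14, in which interferon-induced genes such as Isg15 or Ifi27l2a are among the leading genes, held 444 normal and 3 DSS cells, whereas clusters 4, 7, 9 and 10 held 27 normal and 580 DSS cells. Neutrophil markers summed to 0.502 CPM (1 of 5 markers over 3 UMIs) in the normal and 2556 CPM (5 of 5) in the DSS library.

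Cxcl2 had 7.54 CPM (6.38 to 8.84) in normal and 305 CPM (299 to 311) in DSS colon. Of the DSS UMIs, 81.2% lay in the 6 clusters with Ptprc in more than 50% of their cells. Cluster 15 (66 DSS cells, led by Retnlg, S100a9 and S100a8, neutrophil-like) held 28355 CPM, and cluster 21 (20 DSS cells, led by Apoe and the C1q genes, macrophage-like) held 5337 CPM. Cxcl2 was itself among the leading genes of cluster 15. Without the 6 clusters and all other Ptprc-positive cells, Cxcl2 had 7.98 CPM in normal and 55.9 CPM in DSS colon, a log2 ratio of 2.66 instead of 5.16. Without clusters 15, 21 and 22 the log2 ratio was 2.79. Clusters kept in both settings still held neutrophil markers. Over all their cells these summed to 8.75 CPM in cluster 5, 218 CPM in cluster 7 and 1994 CPM in cluster 16. How far RNA of neutrophils adds to the Cxcl2 of the kept cells was not tested.

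**Figure D5:**
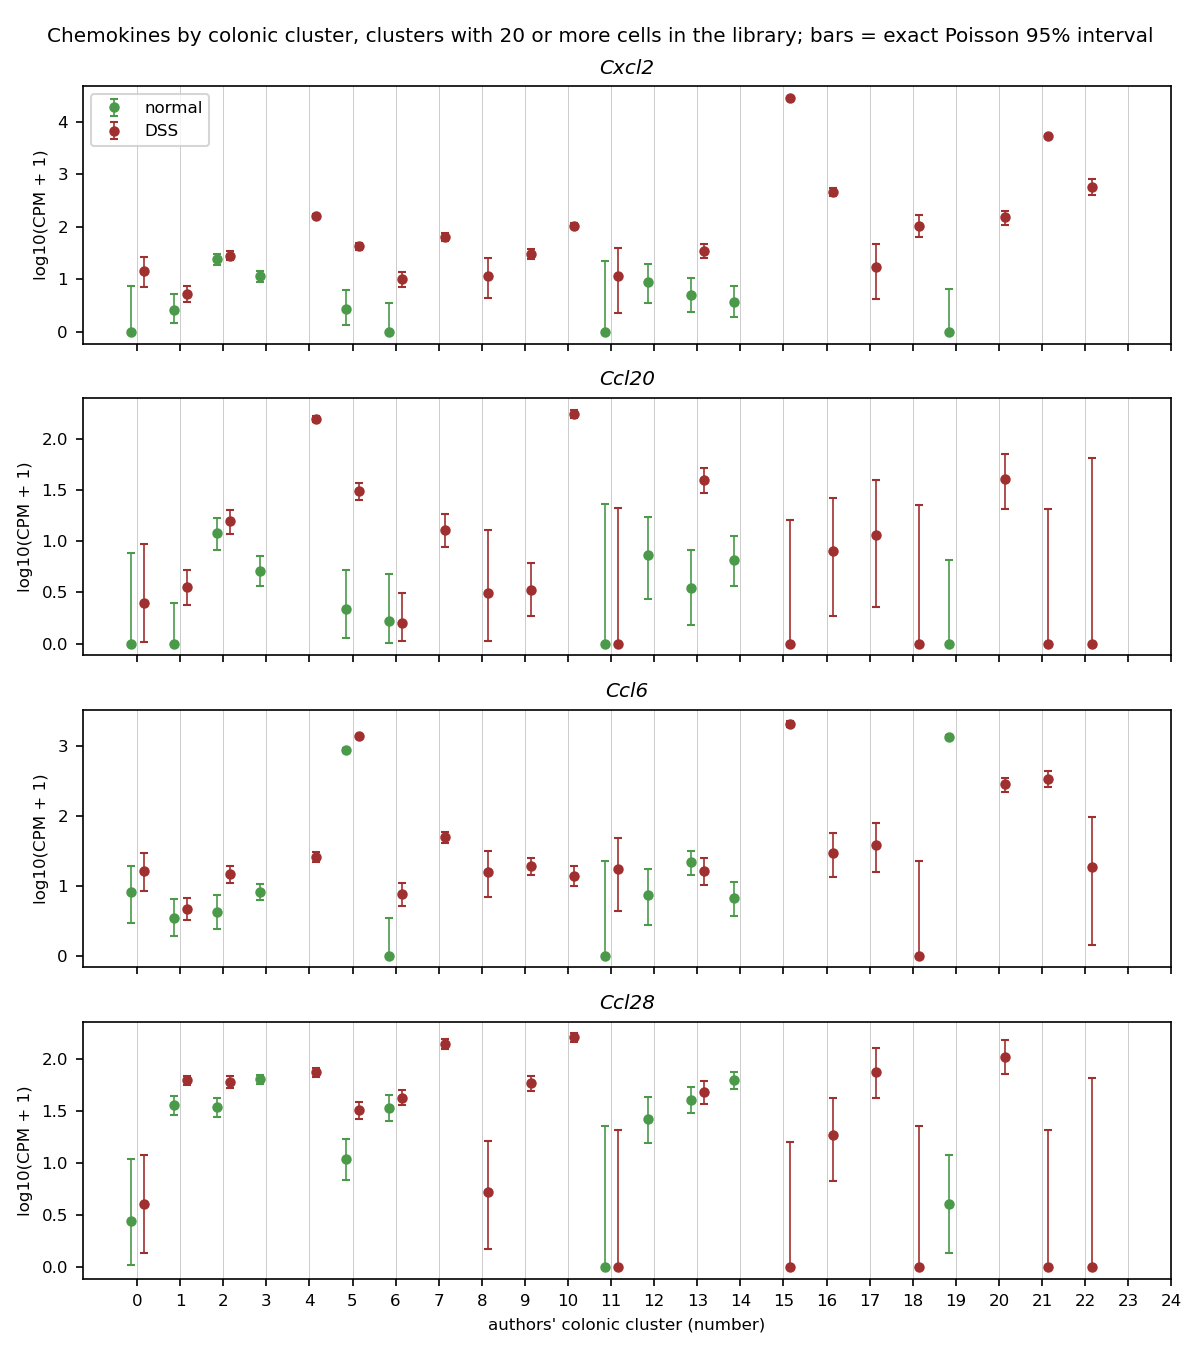
log10(CPM + 1) of Cxcl2, Ccl20, Ccl6 and Ccl28 (y axis) in the authors' colonic clusters (x axis) of the normal (green) and DSS (red) library, for clusters with at least 20 cells in the library, with exact Poisson 95% intervals. Cxcl2 is highest in clusters 15 and 21, Ccl20 in clusters 4 and 10, and Ccl6 in clusters 5, 15 and 19.

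Ccl20 was higher in epithelial clusters of the DSS library. Over all cells it had 3.87 CPM (3.05 to 4.83) in normal and 46.9 CPM (44.6 to 49.4) in DSS colon, and 82.4% of the DSS UMIs came from clusters 4 and 10 (155 and 175 CPM), which held 11 and 6 normal cells and 230 and 103 DSS cells. Ccl20 is among the leading genes of both, so this is a description of the clusters. Within clusters found in both libraries it was 1.18 against 29.8 CPM in cluster 5 (goblet-like, led by Spink4 and Muc2) and 2.48 against 38.1 CPM in cluster 13 (led by cell cycle genes such as Pclaf and Ube2c), while in clusters 1, 2 and 6, also found in both, the Poisson intervals overlapped. The normal values rest on 2 UMIs in cluster 5 (0.143 to 4.27 CPM) and 3 UMIs in cluster 13 (0.510 to 7.23 CPM). In clusters 1, 2, 5, 6 and 13 the intervals did not overlap for 15.8%, 19.6%, 11.5%, 10.7% and 9.53% of the 12440 genes, with 5.97%, 7.56%, 5.84%, 4.49% and 4.85% higher in DSS cells and 9.80%, 5.71%, 6.18% and 4.69% lower in clusters 1, 5, 6 and 13 (1499 genes were lower in cluster 2).

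Cxcl5 had 24 UMIs (1.21 CPM, 0.772 to 1.79) in normal and 222 UMIs (6.85 CPM, 5.98 to 7.82) in DSS colon. Clusters 4 and 9 held 71.6% of the DSS UMIs, and 1 cell of cluster 9 held 51 of them.

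The remaining members were under 2-fold over all cells. Cxcl1 had 51.0 and 61.7 CPM in normal and DSS colon, Cxcl16 15.1 and 21.3, Ccl6 124 and 180, Ccl25 11.7 and 7.38, Ccl28 41.9 and 66.2 and Cx3cl1 31.7 and 31.1 CPM. In the DSS library 20.3% of the Cxcl16 UMIs lay in the Ptprc-rich clusters, with 694 CPM in cluster 21. Without these cells the Cxcl16 log2 ratio was 0.21 instead of 0.47.

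Ccl6 was again a transcript of goblet-like cells, with 875 CPM (831 to 920) in the normal and 1369 CPM (1330 to 1409) in the DSS cells of cluster 5, of which it is a leading gene. Clusters 5, 19 and 20, all with goblet markers in the lead, held 82.4% of the DSS Ccl6 UMIs. The neutrophil-like cluster 15 had 2052 CPM of Ccl6.

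In the 5 clusters without a Ptprc majority that held at least 30 cells of both libraries (1, 2, 5, 6 and 13), the Poisson intervals of Cxcl1 did not overlap in any, as for 1.84% of the 12440 genes, but the direction was not shared. Cxcl1 was lower in DSS cells of clusters 1 (62.6 against 20.7 CPM), 2 (78.8 against 58.6) and 6 (22.2 against 7.14) and higher in clusters 5 (29.0 against 55.0) and 13 (42.1 against 78.6). Ccl28 was higher in DSS cells in 3 of the 5 (clusters 1, 2 and 5), Ccl25 lower in 2 (1 and 2), and Cx3cl1 and Cxcl16 overlapped in all 5. Cxcl2 was higher in DSS cells of clusters 5, 6 and 13, Cxcl5 of clusters 5 and 13 and Ccl6 of clusters 2, 5 and 6, and the intervals of these genes overlapped in the other clusters. Levels in cluster 6 were low, with 31 Cxcl2 UMIs (9.22 CPM) and 22 Ccl6 UMIs (6.54 CPM) in DSS cells and 0 of each in normal cells. Carry-over of RNA from clusters rich in these transcripts was not tested.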

How the data were processed

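UMI counts per gene and barcode were deposited for 10 libraries. The authors made these counts with Cell Ranger (3.0.0 in the submitters' processing notes, 3.1.0 in the file headers), filtered and annotated cells with Seurat 3.1.4 and deposited 25204 kept cells with a class. The genome build was mm10. The stated cell filter was a minimum of 1500 genes and a maximum of 25% mitochondrial reads, whereas the fewest genes of a kept cell were 501 and the highest mitochondrial share 20.0%. Doublets were not called here and stayed in. Columns of per-sample values without a sample numbered 0.

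Counts were summed per gene and library, or per class and library, over kept cells and fitted with edgeR 4.0.16 in R 4.3.3 (TMM, filterByExpr, quasi-likelihood F test, Benjamini-Hochberg over all genes tested), with the 8 organoid libraries in 1 fit. A difference was called at an adjusted p under 0.05 and at least 2-fold. Printed CPM are plain, without TMM factors. The fit was tested on simulated data.

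The colonic log2 ratios use a pseudocount of 1 CPM. Cells were thinned to 10000 UMIs before shares were taken, which left out 63 to 280 cells per library. A share of 0 allows up to 3 counts, and intervals and floors cover counting error only. Promoters are those of the RefSeq table and gene positions those of GENCODE. Counts of the ENR and Hyper libraries of series 2, 6 and C deviated from their group means together (correlations over 16037 genes of 0.19, 0.17 and 0.44). Across series the correlations were 0.13 (ENR 2 with Hyper 1), 0.062 (ENR 1 with Hyper 2) and -0.29 to -0.18 where only 1 library was of series C. Deviations from a group mean depend on each other, so this check does not decide whether series 2 and 6 are paired. The pairing comes from the labels' sample names, and series enters as a block in an alternative only.

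All 9 members are named in each comparison. Of the 4 lists of other genes, up to 5 called genes with the largest rise and 5 with the largest fall are named, and the 3 genes most like each member were ranked among genes with at least 5 CPM. The members and lists were chosen with earlier results of these data known. Alternatives were DESeq2 1.42.0, RLE size factors, no filter, the stated cell filter, every barcode, only the groups compared, culture series as a block, each library left out, at least 50 cells per class, another pseudocount, TMM for the colon and other thinning.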

Additional observations from a re-analysis of the deposited data

How the results depend on the processing

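With culture series as a replicate block, 7, 5 and 1 members were called for Hyper against ENR, Hyper against -VE and -VE against ENR, as without it, and 17, 14 and 2 pairs of a member and a class. The block ended 1 call, Ccl28 in SC between Hyper- and ENR-organoids (-0.995), gave the call of Ccl20 in GC (-1.07) between the same groups and of Ccl25 in SC (-1.07) between Hyper- and -VE-organoids, and moved Ccl28 between -VE- and ENR-organoids from 0.01 to -0.019. Leaving out 1 library gave 3 to 5 members called for Hyper against -VE, 0 to 1 for -VE against ENR, 8 to 13 pairs for Hyper against -VE and 0 to 2 pairs for -VE against ENR. For -VE against ENR 2 members were called with DESeq2, without the filter on low counts and with every barcode. The other counts stayed within 1.5 times under the alternatives run, 3 members past 2-fold in colon among them, and the cause of the moves was not tested.

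Signs turned for differences that were not called. For Hyper against -VE, leaving out 1 library gave log2 fold changes of -1.57 to 2.58 for Cxcl5, -0.55 to 0.86 for Ccl6, -0.98 to 0.062 for Ccl20 and -0.0050 to 0.32 for Cx3cl1. Ccl6 was at 0.030 with DESeq2, 0.00079 with RLE size factors, 0.0046 with only the groups compared and 0.00040 with every barcode, and Cxcl5 at 2.23 without revival stem cells. For -VE against ENR the ranges were -0.19 to 0.35 for Cxcl1, -0.25 to 0.41 for Cxcl2, -0.49 to 0.37 for Cxcl16, -0.71 to 0.32 for Ccl20 and -0.11 to 0.11 for Ccl28. Without revival stem cells Cxcl1, Cxcl2 and Cxcl16 were at -0.035, -0.013 and -0.17, and Cxcl16 was at -0.44 with every barcode.

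Low counts limit Cxcl5 and Cxcl2, and few cells limit EC, EP, PC and RSC of Hyper-organoids. Alternatives without revival stem cells and without colonic clusters 15, 21 and 22 were added after the data were seen, as was the 50% threshold on Ptprc. Without library scaling the median log2 fold change of all genes was 0.12 for Hyper against ENR and 0.15 for Hyper against -VE.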
